A study of Arabidopsis thaliana with 2 samples.

Results

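The genes described here are 10 Arabidopsis thaliana loci of sulphur-deficiency signalling and sulphate assimilation: SDI1, SDI2, LSU1, LSU2, SULTR1;1, SULTR1;2, APR1, APR2, APR3 and BGLU28. They were taken by locus number out of 21808 loci listed in either library, and were chosen by known role with their reads and RPKM in both of these libraries in view, so their values and counts are descriptions. Polyadenylated RNA of 10-day seedlings was sequenced in 2 libraries, 1 of the crwn1 crwn2 double mutant and 1 of wild type (WT). CRWN1 and CRWN2 encode coiled-coil proteins of the nuclear lamina, and the labels give the genotype without naming alleles, growth medium or the number of seedlings per library. With 1 library per genotype no difference has a replicate check, no test between genotypes was made, and growth, harvest and library preparation cannot be told apart from genotype.

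Plants take up sulphate through root transporters of the SULTR1 group, activate it with ATP sulphurylase to adenosine phosphosulphate (APS), and reduce APS to sulphite with APS reductase in plastids. Sulphite reductase gives sulphide, which is joined to O-acetylserine to make cysteine, the source of methionine and glutathione. When sulphur runs short, or O-acetylserine builds up, a set of marker genes that includes SDI and LSU genes is induced together with APR3 and root sulphate transporters. APR is regarded as a main control point of the pathway.

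The crwn1 crwn2 library held 2203650 uniquely placed reads and the WT library 2094440, with a median of 26 and 24 reads per listed locus. CRWN1 had 57 reads in crwn1 crwn2 against 1021 in WT, and CRWN2 had 9 against 148. A locus was measured if it reached 10 reads and 1 RPKM (reads scaled by model length and library total) in at least 1 library, as 14393 loci did. It was called if RPKM + 1 differed at least 2-fold and the exact 95% interval of the ratio of reads, for equal library totals, excluded 1. That interval covers counting error only, not the spread between replicates. PCR copies are not independent molecules, so it may be too narrow even for counting error. By this rule 6.34% of measured loci were called higher in crwn1 crwn2 and 4.53% lower. After TMM scaling, which shifted the median log2 ratio of all measured loci by -0.13, these shares were 4.8% and 5.74%, and the share of calls that were higher was 45.6% instead of 58.3%.

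Of the 10 genes, 7 passed the floor on low values, and 5 of these were called higher in crwn1 crwn2: SDI1, SDI2, LSU2, APR1 and APR3. APR2 and BGLU28 had more reads in crwn1 crwn2 but intervals that held 1. LSU1 and SULTR1;2 were listed with too few reads to be measured, and SULTR1;1 was listed in neither library. None was called lower. Of all measured loci 6.34% were called higher and 4.53% lower. The median log2 ratio of RPKM + 1 over the 7 measured genes was 1.76, and over all 14393 measured loci it was 0.12. Of the 7, 4 passed the floor in crwn1 crwn2 alone (SDI1, LSU2, APR2 and BGLU28), and a gene that passes through the library where it is high tends to differ, so the 7 do not stand for all 10.

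**Figure D1:**
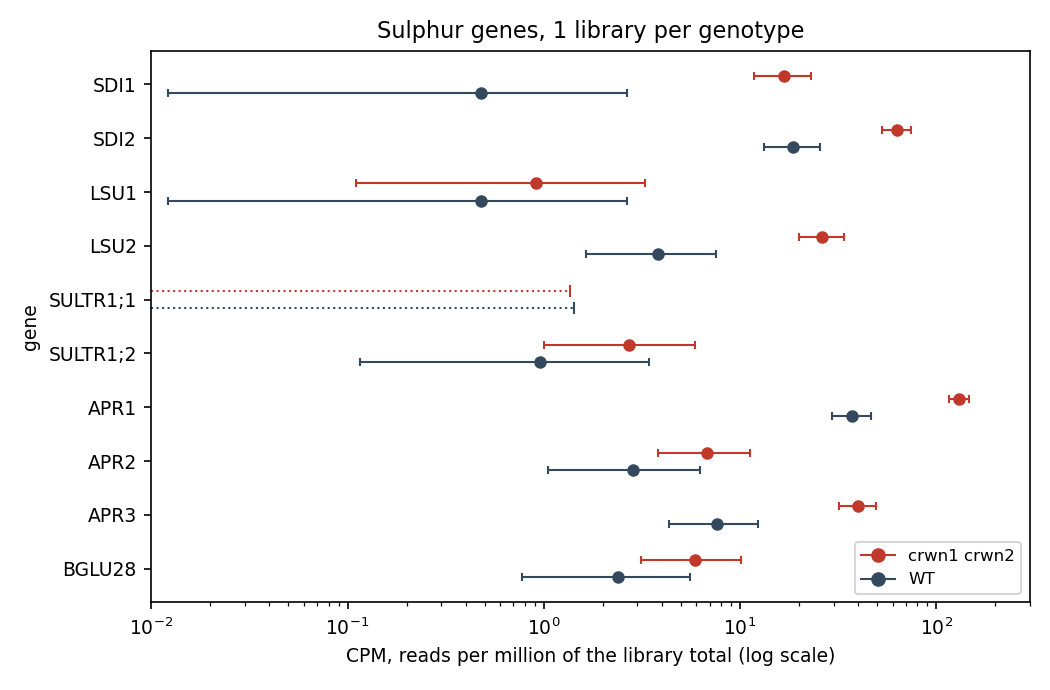
Level of each gene as CPM (reads scaled to the library total) on a log axis, crwn1 crwn2 above WT, with exact 95% Poisson intervals. SULTR1;1 had 0 reads in both libraries and is drawn as a dotted line up to the level of 3 reads. SDI1, SDI2, LSU2, APR1 and APR3 were called higher, where 6.34% of all measured loci were. Of these, SDI1 and LSU2 passed the floor in crwn1 crwn2 alone.

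SDI1 (AT5G48850, chromosome 5, 19805437 to 19807759 on TAIR10) encodes a tetratricopeptide-repeat protein that, in Arabidopsis, curbs the synthesis of aliphatic glucosinolates when sulphur is short. It had 37 reads and an RPKM of 15.0 in crwn1 crwn2, against 1 read and an RPKM of 0.426 in WT. For equal library totals this was 35.2-fold more reads, and the single WT read left the interval wide, from 5.93 to 1426. On the log2 scale of RPKM + 1 the difference was 3.49, the 10th highest of all measured loci. The crwn1 crwn2 reads were spread along the gene and covered 63.4% of the 1120-base model. The WT read covered 49 bases.

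SDI2 (AT1G04770, chromosome 1, 1336371 to 1337849), the paralog of SDI1, was the more abundant of the pair in both libraries. It had 139 reads and an RPKM of 53.1 in crwn1 crwn2 and 39 reads and an RPKM of 15.7 in WT, 3.39-fold more reads (2.36 to 4.96). Its interval lay wholly under that of SDI1, which had 1 WT read and passed the floor in crwn1 crwn2 alone. Both paralogs were chosen with their values in view, so this is a description and a difference between them was not tested. On TAIR10.1 SDI2 overlaps VAMP726 on the opposite strand over 20.9% of its 49-base windows. VAMP726 had 13 reads in crwn1 crwn2 and 7 in WT and was not called, and reads of the overlap cannot be assigned without strand.

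The LSU genes encode small coiled-coil proteins that bind many partners and are named for their response to low sulphur. LSU2 (AT5G24660, chromosome 5, 8443279 to 8443834) had 58 reads and an RPKM of 47.3 in crwn1 crwn2, against 8 reads and an RPKM of 6.87 in WT. It had 6.89-fold more reads (3.27 to 16.7), with a log2 ratio of 2.62 on the RPKM + 1 scale. LSU1 (AT3G49580, chromosome 3, 18375269 to 18375784) had 2 reads in crwn1 crwn2 and 1 in WT, which allows no comparison (ratio 1.90, 0.0990 to 112). The remaining family members, LSU3 and LSU4, each lie beside one of these genes. LSU3, next to LSU1, had 11 reads against 2 (5.23-fold, 1.14 to 48.5) and was called higher. LSU4, next to LSU2, had 4 reads in crwn1 crwn2 and 5 in WT and was not measured. The neighbours LSU2 and LSU4 thus had intervals, 3.27 to 16.7 and 0.151 to 3.53, that met only at their ends. No 49-base window of LSU1 or LSU2 occurred in a transcript of another locus. RefSeq lists 1 transcript for LSU2, so its reads could be placed uniquely. It lists 3 for LSU1, and reads shared between them may be uncounted.

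APS reductases reduce activated sulphate to sulphite, and their genes are known to respond to sulphur supply and to O-acetylserine. APR1 (AT4G04610, chromosome 4, 2325003 to 2327013) had 288 reads in crwn1 crwn2 against 78 in WT. Its RPKM was 74.3 in crwn1 crwn2 and 21.2 in WT, with 3.51-fold more reads (2.72 to 4.57) and a log2 ratio of 1.76. Reads covered 93.8% of its model in crwn1 crwn2 and 78.7% in WT. Its neighbour AT4G04614, which overlaps APR1 on TAIR10.1, had 85 reads in crwn1 crwn2 and 100 in WT and was not called. APR3 (AT4G21990, chromosome 4, 11657008 to 11659105) had 88 reads and an RPKM of 22.4 in crwn1 crwn2, against 16 reads and an RPKM of 4.28 in WT. This was 5.23-fold more reads (3.05 to 9.54), with a log2 ratio of 2.15. APR2 (AT1G62180, chromosome 1, 22975530 to 22977602) encodes an APS reductase that, in Arabidopsis, carries much of the total activity in leaves. It had 15 reads in crwn1 crwn2 and 6 in WT (2.38-fold, 0.871 to 7.47) and was not called. Summed over the 3 reductases there were 391 reads in crwn1 crwn2 and 100 in WT, 3.72-fold more (2.98 to 4.68). Most of these were APR1 reads, and APR2 and APR3 appear to be counted only in part, so the sum stands mainly for APR1.

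For APR3 and APR2 the reads came from a small part of the gene. The 88 APR3 reads in crwn1 crwn2 covered 245 of 1785 bases, and the 16 reads in WT covered 181. The 15 APR2 reads covered 190 of 1766 bases in crwn1 crwn2, and 6 covered 149 in WT. RefSeq lists 2 transcripts for each of these loci and 1 for APR1. Of the 49-base windows of APR2 44.3% also occur in the overlapping loci AT1G62170, which had 1 read in crwn1 crwn2 and 0 in WT, and AT1G08477, listed in neither library, and none of the windows of APR3 occurs in another locus. Across the libraries, models of loci with 1 RefSeq transcript had a median coverage of 68.2% in crwn1 crwn2 and 64.5% in WT, against 10.4% in either library for loci with several. Reads shared between transcripts of a locus, and for APR2 perhaps between loci, therefore appear to be uncounted. The levels of APR2, APR3, LSU1, SULTR1;2 and BGLU28 may thus be too low in both libraries and are not ranked against those of other genes. Their ratios, and the APR3 call, rest on the counted bases alone. Of the 49-base windows of APR3 81.6% lie in both of its transcripts. For these loci a shift between transcripts and a change of the whole locus cannot be told apart.

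**Figure D2:**
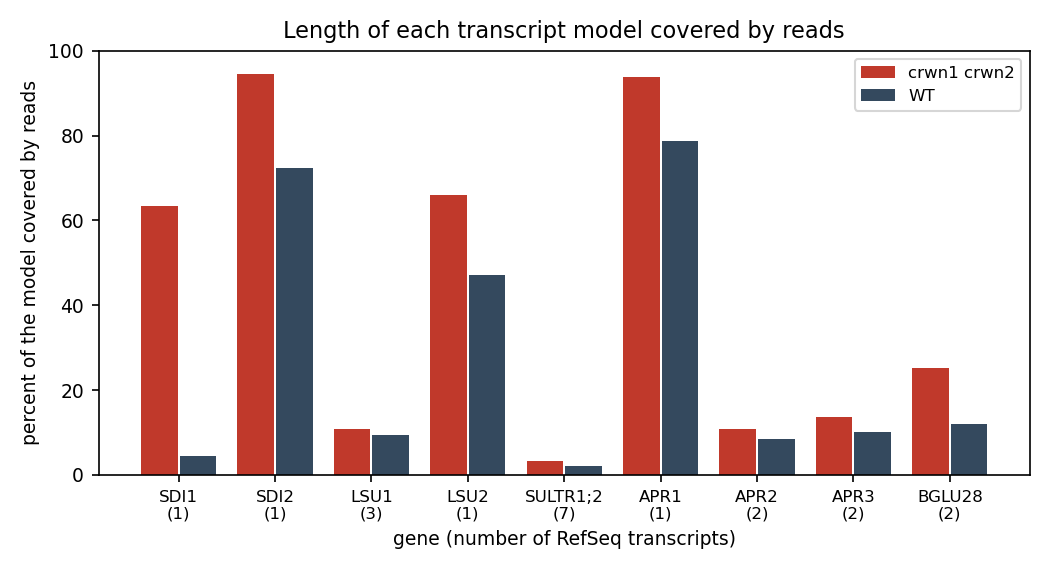
Percent of each gene's transcript model covered by reads, crwn1 crwn2 left of WT, for the model with the most reads, with the number of RefSeq transcripts under the name. SDI1, SDI2, LSU2 and APR1, with 1 transcript each, were covered over 63.4% to 94.4% in crwn1 crwn2, and the genes with several transcripts over 3.4% to 25.3%.

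The sulphate transporters SULTR1;1 and SULTR1;2 carry out high-affinity uptake of sulphate by roots. SULTR1;1 (AT4G08620) had 0 reads in crwn1 crwn2 and 0 in WT. A count of 0 allows up to 3 reads, a level of up to 1.36 CPM in crwn1 crwn2 and 1.43 in WT. RefSeq gives it 1 transcript, none of whose 49-base windows occurred in another locus. SULTR1;2 (AT1G78000, chromosome 1, 29329735 to 29333146) had 6 reads over its listed models in crwn1 crwn2 and 2 in WT (2.85-fold, 0.510 to 28.9). RefSeq lists 7 transcripts of SULTR1;2, and reads covered 3.4% of its main model in crwn1 crwn2 and 2.14% in WT. At this depth no difference in either uptake transporter was detectable.

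BGLU28 (AT2G44460, chromosome 2, 18346439 to 18349966) encodes a beta-glucosidase known in Arabidopsis as a strongly sulphur-responsive gene with a part in glucosinolate breakdown. It had 13 reads and an RPKM of 3.03 in crwn1 crwn2, against 5 reads and an RPKM of 1.22 in WT. The ratio of 2.47 had an interval of 0.827 to 8.85, and the gene was not called. Its relative BGLU30 had 13 reads in crwn1 crwn2 and 7 in WT (1.77-fold, 0.655 to 5.22).

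The order of levels could be read per length for the 4 measured genes with 1 RefSeq transcript. In crwn1 crwn2 APR1 stood at an RPKM of 74.3 (exact Poisson interval 66.0 to 83.4), above SDI2 at 53.1 (44.7 to 62.7), LSU2 at 47.3 (35.9 to 61.2) and SDI1 at 15.0 (10.6 to 20.7). In WT the order was the same, with RPKM values of 21.2, 15.7, 6.87 and 0.426. SDI2 and LSU2 could not be told apart in crwn1 crwn2, and in WT neither APR1 and SDI2 nor SDI2 and LSU2 could. SDI1 lay under LSU2 in both libraries beyond the counting intervals. Its RPKM ranked at percentile 43.3 of measured loci in crwn1 crwn2 and 0.347 in WT, while that of APR1 ranked at percentile 86.5 in crwn1 crwn2 and 56.4 in WT. Among the 21 pairs of measured genes, the intervals of the read ratio failed to overlap in 2, SDI1 with SDI2 and SDI1 with APR1. Each includes SDI1, whose ratio rests on 1 WT read, and the genes were chosen with their values in view, so this is a description.

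**Figure D3:**
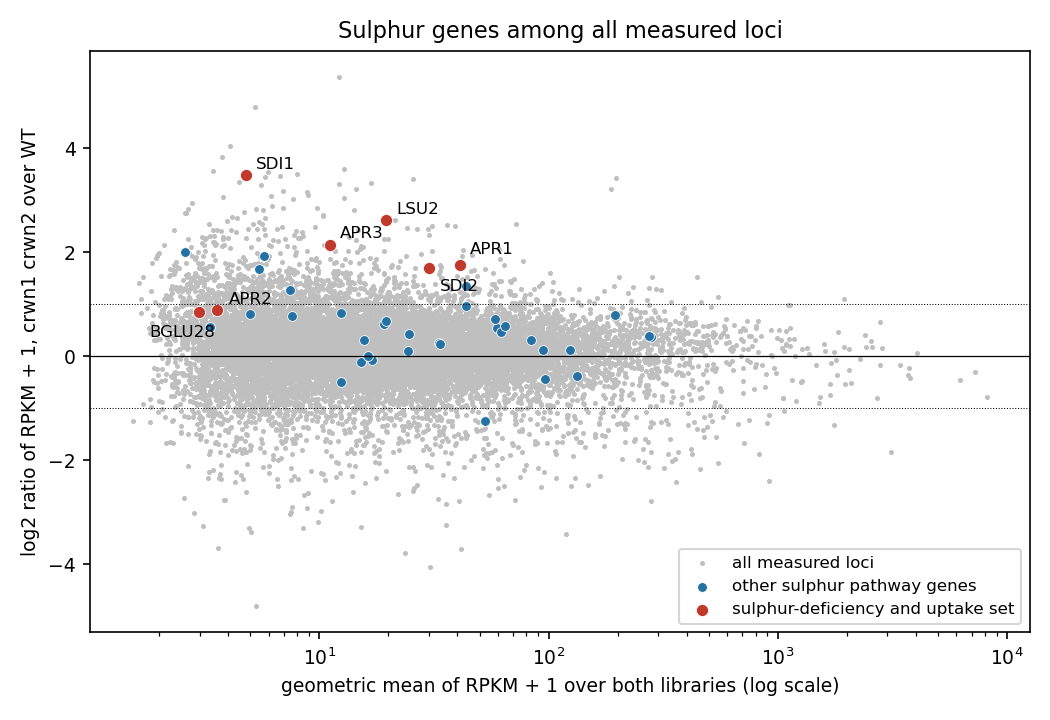
Log2 ratio of RPKM + 1, crwn1 crwn2 over WT, against mean level on a log axis for all measured loci, with dotted lines at 2-fold. The 7 measured sulphur-deficiency and assimilation genes (red, named) lie at log2 ratios of 0.86 to 3.49, and the 34 other measured sulphur pathway genes (blue) at -1.23 to 2.0.

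The stretches of DNA before these genes were searched for the sulphur-responsive element core, GAGAC on either strand, which was defined in the SULTR1;1 promoter of Arabidopsis. The 300 bases before the RefSeq gene start on TAIR10.1 held it in 2 of the 10 genes, SDI1 and BGLU28, against 30.0% of 27443 protein-coding genes. Over 1000 bases it occurred in 5 of the 10 genes, against 71.7% of all. The G-box CACGTG, on either strand, occurred in none of the 10 within 300 bases (7.09% of all genes) or 1000 bases (14.8%). Neither share was above that of all genes. Both genes with the core and the called genes LSU2 and APR3, which lack it, are shown 5′ to 3′ on the strand of the gene, with matches in capitals. The windows are chr5:19807854-19808153 (minus strand), chr2:18346006-18346305 (plus), chr5:8444102-8444401 (minus) and chr4:11659168-11659467 (minus).
SDI1: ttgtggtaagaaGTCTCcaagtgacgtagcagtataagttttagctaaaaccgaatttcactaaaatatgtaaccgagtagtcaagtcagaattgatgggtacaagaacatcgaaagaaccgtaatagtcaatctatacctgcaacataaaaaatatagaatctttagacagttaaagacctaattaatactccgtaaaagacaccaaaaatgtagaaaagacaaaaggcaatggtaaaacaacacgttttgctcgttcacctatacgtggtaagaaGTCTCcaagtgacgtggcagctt
BGLU28: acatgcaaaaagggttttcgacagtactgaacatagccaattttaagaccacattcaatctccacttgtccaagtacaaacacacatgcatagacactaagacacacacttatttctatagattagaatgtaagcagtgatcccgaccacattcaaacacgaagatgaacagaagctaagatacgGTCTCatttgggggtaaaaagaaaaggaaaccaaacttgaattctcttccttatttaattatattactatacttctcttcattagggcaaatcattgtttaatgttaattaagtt
LSU2: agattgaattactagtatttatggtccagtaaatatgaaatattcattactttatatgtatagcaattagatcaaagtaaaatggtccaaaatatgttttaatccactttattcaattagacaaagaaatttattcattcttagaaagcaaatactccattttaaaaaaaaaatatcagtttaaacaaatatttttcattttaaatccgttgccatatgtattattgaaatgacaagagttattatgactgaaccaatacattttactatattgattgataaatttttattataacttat
APR3: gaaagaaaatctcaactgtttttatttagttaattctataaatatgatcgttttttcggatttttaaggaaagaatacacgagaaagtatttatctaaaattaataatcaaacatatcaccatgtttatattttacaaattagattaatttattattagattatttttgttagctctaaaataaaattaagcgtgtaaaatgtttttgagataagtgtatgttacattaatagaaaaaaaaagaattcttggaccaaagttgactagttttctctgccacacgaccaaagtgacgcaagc
The SDI1 window holds the core on the antisense strand at 288 and at 23 bases before the gene start, each time inside the same 25-base sequence, which therefore occurs as a direct repeat. Capitals mark the core.
SDI1 repeat: gtggtaagaaGTCTCcaagtgacgt
An exact repeat of at least 25 bases was present in 0.878% of the 300-base windows, and the longest in the other 9 genes ran from 8 to 17 bases. The repeat was noticed in the sequence and then searched for, and nothing in the reads bears on it.

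The wider pathway was described by 10 lists of 44 further genes, 34 of them measured. Of these 5 were called higher and 1 lower, where 6.34% of all measured loci were called higher and 4.53% lower. Of the 5, 3 passed the floor in crwn1 crwn2 alone. The other 28 were not called. Of these, 17 had an interval that excluded 1 but a difference under 2-fold, some higher (as APS1) and some lower (as APS4). How many of all measured loci did the same was not counted, so no weight is placed on the 17. The median log2 ratio of the 34 was 0.45, against 0.12 for all measured loci. Among these 34 the calls at 2-fold fell in markers of sulphur deficiency and in cysteine and methionine metabolism. No other sulphate transporter, ATP sulphurylase or sulphite reductase gene was called. The 34 leave out the SULTR1 pair, which was not measured, and the APS reductases, of which APR1 and APR3 were called higher. Where the calls fell depended on the threshold. At 1.5-fold the transporter genes SULTR3;1 and SULTR3;4, the ATP sulphurylase gene APS3 and the sulphite oxidase gene SOX were called higher too. So were APK2, SAL1, OASA1 and CGS1. That made 13 of the 34, where 13.8% of all measured loci were called higher at 1.5-fold. These are descriptions of the counts, and the difference between lists was not tested.

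Among 5 other sulphur-deficiency markers, 3 of 4 measured genes were called higher, where 6.34% of all measured loci were. Of the 3, LSU3 and GGCT2;1 passed the floor in crwn1 crwn2 alone. SHM7 encodes a serine hydroxymethyltransferase needed for S-adenosylmethionine balance in Arabidopsis. It had 311 reads and an RPKM of 68.6 in crwn1 crwn2, against 113 reads and an RPKM of 26.2 in WT (2.62-fold, 2.1 to 3.27). GGCT2;1, which encodes a gamma-glutamyl cyclotransferase that breaks down glutathione, had 18 reads against 4 (4.28-fold, 1.41 to 17.4). LSU3 was the other, as given above. SDI1, SDI2, LSU1, APR3, SHM7 and GGCT2;1 are known in Arabidopsis as the genes that follow O-acetylserine. All of these were called higher except LSU1, which had too few reads, against 6.34% of all measured loci. They were chosen with earlier results of these data known, and SDI1 and GGCT2;1 passed the floor in crwn1 crwn2 alone. The count is therefore a description. EIL3, also called SLIM1, is the transcription factor through which many sulphur-deficiency genes respond. It had 65 reads in crwn1 crwn2 and 67 in WT (0.922, 0.645 to 1.32).

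At the 2-fold threshold no gene of sulphate transport outside the SULTR1 pair, of ATP sulphurylase, or of sulphite reduction was called. The 10 other transporters summed to 1181 reads in crwn1 crwn2 and 1176 in WT, a ratio of 0.954 for equal totals (0.880 to 1.04), and 7 were measured. The most abundant, SULTR2;1, moves sulphate within the vasculature and had 617 reads against 759 (0.773, 0.694 to 0.860). SULTR3;4, known as a transporter that directs phosphorus to young leaves, had 28 reads against 13 and was called with a pseudocount of 0.1 and at a 1.5-fold threshold but not otherwise. ATP sulphurylase genes summed to 1901 reads in crwn1 crwn2 and 1532 in WT, 1.18-fold more (1.10 to 1.26), with log2 ratios from -0.43 to 0.68. SIR, the only sulphite reductase gene of Arabidopsis, had 1513 reads against 1097 (1.31-fold, 1.21 to 1.42). The summed ratio for the APS reductases, which rests mostly on APR1 reads, was 3.72 (2.98 to 4.68). Those genes were chosen with their values in view, so a difference from the steps before and after was not tested.

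**Figure D4:**
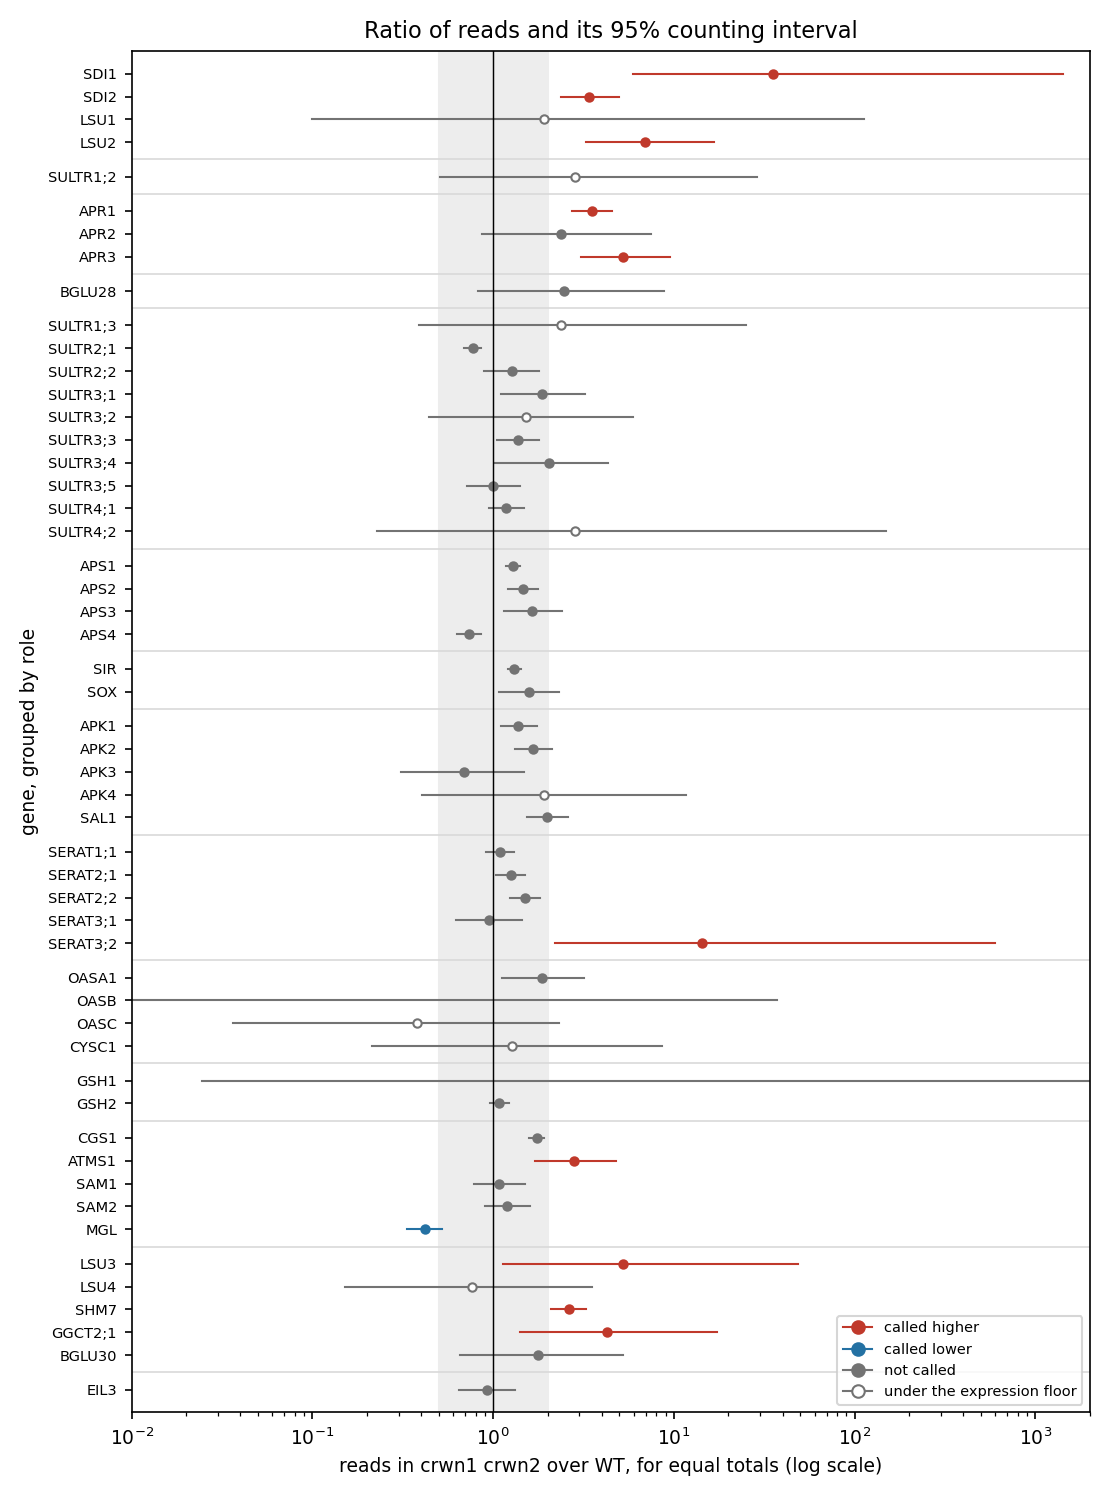
Reads in crwn1 crwn2 over WT for equal totals, on a log axis with exact 95% counting intervals, by role, from the sulphur-deficiency proteins at the top to the regulator EIL3 at the bottom; the grey band spans 2-fold either way. SDI1 stands farthest right at 35.2, EIL3 sits at 0.922 and MGL, at 0.418, was the gene called lower. SULTR1;1 and DES1, with no read, are not drawn, and OASB and GSH1, with 1 read in all, have an interval only, which runs past the axis.

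The ATP sulphurylases and SULTR2;1 include the known targets of miR395, a microRNA induced by low sulphate. None of the 6 MIR395 loci was listed in either library, which does not measure mature microRNA, since polyadenylated RNA was sequenced. RefSeq gives 2 mature forms, each from 3 loci, which share the seed (bases 2 to 8, in capitals). To show which genes of the pathway carry a site, the forms are given, followed by the best-matching site in each of the 4 genes with a site of at most 4 mismatches. Capitals in the sites mark bases that differ from the exact complement of miR395a. A U that faces a G, which can form a wobble pair, is marked and counted as a mismatch too.
miR395a: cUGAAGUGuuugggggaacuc
miR395b: cUGAAGUGuuuggggggacuc
APS4 site: gaguuccUccaaacacuucaU
APS1 site: gaguuccUccaaacUcuucaU
APS3 site: gaguuccUccaaacUcuucaU
SULTR2;1 site: AaguucUcccaaacacuucaA
Sites this close occurred in 15 of 27440 transcripts, 4 of them among the 16 ATP sulphurylase and sulphate transporter genes. The 4 genes did not move together. APS4 had 307 reads in crwn1 crwn2 and 395 in WT (0.739, 0.634 to 0.860), and SULTR2;1 also had fewer reads, while APS1 had 1227 reads against 905 (1.29, 1.18 to 1.41) and APS3 85 against 49 (1.65, 1.15 to 2.39). None differed 2-fold. APS2, whose best site had 8 mismatches, had 282 reads against 183 (1.46, 1.21 to 1.77).

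In the branch that phosphorylates APS for sulphated compounds such as glucosinolates, no gene was called at the 2-fold threshold. APK1 had 189 reads in crwn1 crwn2 and 130 in WT (1.38-fold, 1.10 to 1.74), and APK2 203 against 116 (1.66-fold, 1.32 to 2.11). SAL1, the phosphatase that removes the by-product of sulphation, had 182 against 87 and a log2 ratio of 0.97, just inside the 2-fold limit. Of 5 serine acetyltransferase genes, whose enzymes make O-acetylserine, SERAT3;2 was called higher with 15 reads in crwn1 crwn2 and 1 in WT (14.3-fold, 2.19 to 600). SERAT1;1, the one with the most reads over both libraries, had 260 against 226 (1.09-fold, 0.911 to 1.31). Cysteine synthase genes have several transcripts each, and only OASA1 was measured, with 47 reads against 24 (1.86-fold, 1.12 to 3.18). GSH2, for the last step of glutathione synthesis, had 538 against 472 (1.08-fold, 0.956 to 1.23).

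Methionine genes went both ways. ATMS1, a methionine synthase gene, was called higher with 65 reads in crwn1 crwn2 against 22 in WT (2.81-fold, 1.71 to 4.78). Reads covered 7.43% of its main model in crwn1 crwn2 and 6.75% in WT, and the locus has 2 RefSeq transcripts. CGS1, the committed enzyme of methionine synthesis, had 1253 reads against 685 and a log2 ratio of 0.79, not called. MGL, a methionine gamma-lyase gene that breaks methionine down, was called lower, with 120 reads and an RPKM of 33.4 in crwn1 crwn2 against 273 reads and an RPKM of 80.1 in WT (0.418, 0.334 to 0.520).

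Some markers of roots, where sulphate is taken up, also differed between the libraries. Of 17 measured root markers of 20, 8 were called higher in crwn1 crwn2 and none lower, where 6.34% of all measured loci were called higher and 4.53% lower, and their median log2 ratio was 1.0. Of the 17, 11 passed the floor in crwn1 crwn2 alone, 7 of the 8 called ones among them, so that count and median lean towards higher values. The largest was EXPA18, a root hair expansin gene, at 3.57, and the smallest PLT1, a root meristem regulator, at -0.15. Summed over all 20 markers, measured or not, levels were 5050 CPM in crwn1 crwn2 and 4370 in WT, or 424 and 260 without the most abundant marker, PYK10, a ratio of 1.63 (1.46 to 1.81). NRT2.1 had 0 reads in both libraries, and EXPA7, EXPA18 and ESB1 had 0 in WT. Of 9 measured shoot markers 1 was called lower and none higher, with a median of -0.54. RBCS1A, a Rubisco subunit gene, was highest at 0.49, and LHB1B1, for an antenna protein with near-identical copies that may take its reads, lowest at -2.16. Whether a larger share of root tissue plays a part in the sulphur gene values was not tested, and in seedling RNA more cells of a type and more RNA per cell cannot be told apart. The SULTR1 pair, known from root uptake, had too few reads to be set beside the root markers.

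**Figure D5:**
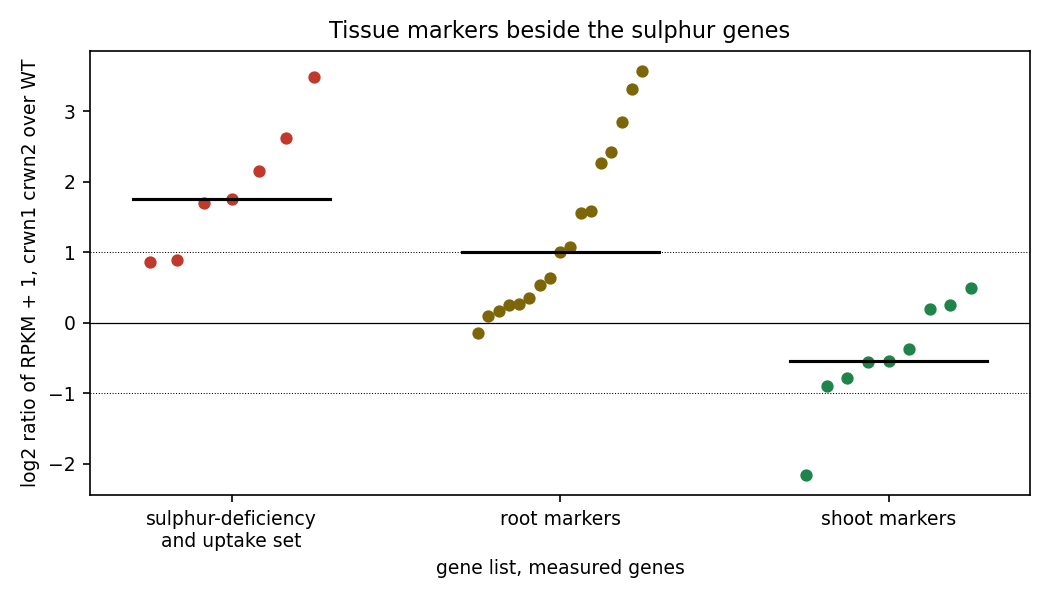
Log2 ratio of RPKM + 1, crwn1 crwn2 over WT, of measured genes in 3 lists, 1 point per gene, with the median as a bar and dotted lines at 2-fold. Medians are 1.76 for the 7 sulphur-deficiency and assimilation genes, 1.0 for 17 root markers and -0.54 for 9 shoot markers.

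Of 18 listed loci next to the 9 listed genes, 11 were measured and 1 was called, LSU3, a share of 9.09% where 10.9% of all measured loci were called either way. SDI1 lay 360 bases from PANC, a gene of pantothenate synthesis with 46 reads in crwn1 crwn2 and 45 in WT. APR3 lay 533 bases from AT4G22000, with 122 and 109 reads. On its other side APR3 overlaps the autophagy gene APG8A, which had 6 and 2 reads.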

How the data were processed

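Reads per transcript model were counted by the authors from 2 libraries of 10-day seedlings, and the deposited counts, whole numbers of uniquely placed reads per the file headers, sum to each header total. Dividing the counts by model length and header total gives the deposited RPKM exactly. The coverage column gives, per the file headers, the percent of each model covered by reads. The submitters' processing notes name TAIR10 as the build. Not given in the sources used here are aligner, counting rule, strandedness and read filters. Models without a read are missing from the files and were set to 0.

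Both quantities were added up over the models of a locus. The log2 ratio used RPKM + 1, crwn1 crwn2 over WT. Ratios of reads have exact conditional binomial (Clopper-Pearson) 95% intervals, and levels exact Poisson intervals, from scipy 1.17.1. A count of 0 was read as allowing 3 reads. The interval code was tested on simulated data with 200 altered genes. TMM factors, 1.05 in crwn1 crwn2 and 0.954 in WT, came from edgeR 4.0.16. No test between genotypes was made.

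The 10 genes and all gene lists were chosen with earlier results of these data known. Named were all 10 genes, each called gene and the most abundant gene of each pathway list, and the extremes of the marker lists. SULTR3;1, SULTR3;4, SOX, BGLU30, LSU4, APS2, APS3, APS4, APK1, APK2, SAL1, PYK10, markers at 0 reads and neighbouring genes were named after their values were seen. Sequences, transcripts and names are RefSeq's for TAIR10.1. Of 24005 nuclear models compared, 99.97% overlapped the TAIR10.1 gene of the same locus number, and 21651 of 21808 loci matched. Other settings tried were TMM scaling, CPM, 0.1 as pseudocount, a floor at RPKM 5 or none, 4-fold and 1.5-fold thresholds and loci with 1 listed model.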

Additional observations from a re-analysis of the deposited data

How the results depend on the processing

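The same 5 genes, SDI1, SDI2, LSU2, APR1 and APR3, were called higher after TMM scaling, with CPM, with 0.1 as pseudocount, with a floor at RPKM 5 or none, with a 1.5-fold threshold and loci with 1 listed model. Over these settings 4.59% to 13.8% of all loci compared were called higher. At 4-fold 3 of the 5 genes were called higher (SDI1, LSU2 and APR3), where 0.896% of all measured loci were. Of the other pathway genes 1 was called higher (SERAT3;2) and 0 lower, where 0.75% of all measured loci were called lower. At 1.5-fold 13 of the 34 other measured pathway genes were called higher, where 13.8% of all measured loci were. An alternative chosen after seeing the data kept only loci of 1 RefSeq transcript, which leaves out APR3. There 4 of the 5 genes and 3 other pathway genes were called higher, where 6.87% of all measured loci were. The median log2 ratio of the measured genes was 1.81 with a pseudocount of 0.1, 2.15 with an RPKM floor of 5 (5 genes), 1.70 with no floor (9 genes), 1.63 after TMM scaling, 1.78 with CPM and 2.19 with 1 RefSeq transcript (4 genes). A gene's own log2 ratio can change only with the pseudocount, TMM scaling or CPM. Of 72 such values of 24 named genes, 69 stayed within the counting interval and 3 moved after TMM scaling, APS1 (0.23), SIR (0.25) and CGS1 (0.66). No called gene changed sign, and of the others SERAT1;1 (-0.01) and GSH2 (-0.02) did after TMM scaling. No paired analysis was possible because each genotype has 1 library. Low read numbers limit SULTR1;1, SULTR1;2, LSU1, LSU4, APR2 and BGLU28, where depth and uncounted reads cannot be told apart for the loci with several transcripts, and the size of the SDI1 and SERAT3;2 ratios, which rest on 1 WT read each.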
